A study of Mus musculus with 16 samples.

Results

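Interferon-stimulated genes are the genes that cells switch on when interferon is sensed, and 35 of them were followed here through 15 aortic valve libraries of mice. They were chosen by name, from the sensors that detect foreign RNA to the enzymes and membrane proteins that block a virus. Of the 20992 genes in the table all 35 had a row, and all 35 were among the 15004 genes that passed the filter on low values (at least 1 unit in at least 4 libraries). The mice were of the C57BL/6J background, and no ages were given in the labels. CON were control mice (4 libraries), HT carried transgenes for human renin and human angiotensinogen as a model of hypertension (4), HC lacked ApoE as a model of hypercholesterolaemia (4), and HC/HT carried both changes (3 libraries with a named column, of 4 planned). The groups held 1 female of 4, 2 of 4, 3 of 4 and 2 of 3. The labels number the libraries as replicates and do not say whether valves were pooled or which promoters drive the transgenes. The p-values below measure the spread between these libraries, part of which may be technical, and no batch is given. Each column name opens with a running number whose meaning is not stated. That number is lower in every named HC and HC/HT column than in every CON and HT column. Any order it stands for cannot be told apart from ApoE status.

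Type I interferons bind the receptor made of Ifnar1 and Ifnar2, which activates STAT2. With IRF9 it is part of a complex that enters the nucleus and binds the interferon-stimulated response element, a repeat of GAAA, near the genes it turns on. Interferon gamma uses another receptor, and many of the same genes respond to both. In the artery wall and the heart valves such genes are expressed by endothelial cells, fibroblasts and macrophages alike.

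The element can be read in the upstream sequence of several of these genes. The 250 bases before each start site were searched for GAAANNGAAA on both strands, where the other strand reads TTTCNNTTTC and overlapping matches count. RefSeq promoters (GRCm38.p6, the build called mm10) were at hand for 27 of the 35 genes, and 10 of these, 37.0%, held a match. Of the 27025 genes listed there 3.46% held one, and of their 32851 promoters 2.98%. The genes with a match were IFIT1, IFIT3, ISG15, OAS1A, OAS3, BST2, STAT2, RSAD2, GBP2 and GBP3. A match describes the letters only, and a gene without one may have its element elsewhere. The stretches of 7 of these genes, picked as examples, are printed here to let the element be read in each. They are given 5′ to 3′ on the gene's strand, with the matches in capitals.

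IFIT1 (chr19:34640770-34640828, plus strand): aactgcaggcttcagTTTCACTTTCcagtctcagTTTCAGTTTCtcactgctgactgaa
IFIT3 (chr19:34583358-34583431, plus strand): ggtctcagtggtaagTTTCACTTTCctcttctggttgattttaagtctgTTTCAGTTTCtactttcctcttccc
ISG15 (chr4:156200860-156200911, minus strand): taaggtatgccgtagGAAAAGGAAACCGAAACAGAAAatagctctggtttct
OAS3 (chr5:120777710-120777749, minus strand): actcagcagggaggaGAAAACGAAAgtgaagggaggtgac
OAS1A (chr5:120907526-120907560, minus strand): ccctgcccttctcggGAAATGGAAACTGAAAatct
BST2 (chr8:71537572-71537617, minus strand): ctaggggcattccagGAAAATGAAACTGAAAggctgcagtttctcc
STAT2 (chr10:128270261-128270300, plus strand): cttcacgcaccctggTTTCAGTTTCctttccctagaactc

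The stretches of ISG15, BST2, OAS1A and OAS3 carry the element as GAAA repeats, and those of IFIT1, IFIT3 and STAT2 as its reverse complement. ISG15 held 3 overlapping matches, IFIT1, IFIT3, OAS1A and BST2 held 2 each, and OAS3 and STAT2 held 1.

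Values are the authors' normalised counts, rescaled by a single factor so that the median library adds up to 1000000 units. A single sequenced read was worth an estimated 0.155 to 0.237 units, so a level under 1 unit rests on a handful of reads. In every library 4 very abundant rows took 32.4% to 62.7% of the total, which lowers all other genes together where that share is high. For this reason each difference is given beside the median over all 15004 genes tested, and the medians are repeated with median-of-ratios factors (0.626 to 1.32), which set the typical gene equal between libraries. Some marker sums differed between these groups. Of 14 macrophage markers listed 13 passed the filter. Their list summed to 1001 to 1590 units in CON, 200 to 1627 in HT, 2318 to 4457 in HC and 1958 to 2987 in HC/HT. Macrophage sums thus overlapped between CON and HT and were higher in HC and HC/HT. Smooth muscle sums were 151 to 2556 units in CON and 46.7 to 109.8 in HC/HT. Endothelial sums overlapped between all groups (676 to 1149 in CON, 686 to 1024 in HC/HT). In whole valves fewer cells of a type and less RNA per cell cannot be told apart.

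Between genes, levels can be compared only per kilobase of exon. In CON the mean level per kilobase was highest for IFITM3, at 561 units, followed by LGALS3BP at 34.7 and TRIM25 at 15.0. The lowest were OASL1 at 0.53, OAS3 at 0.69, MX1 at 0.74 and MX2 at 1.10. Members of the OAS and MX families thus made up the bottom of the order in control valves, and IFITM3, a membrane protein that hinders virus entry, was at the top. The spread between CON libraries for the low genes was nearly as large as their mean, so their order among themselves is not resolved.

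**Figure D1:**
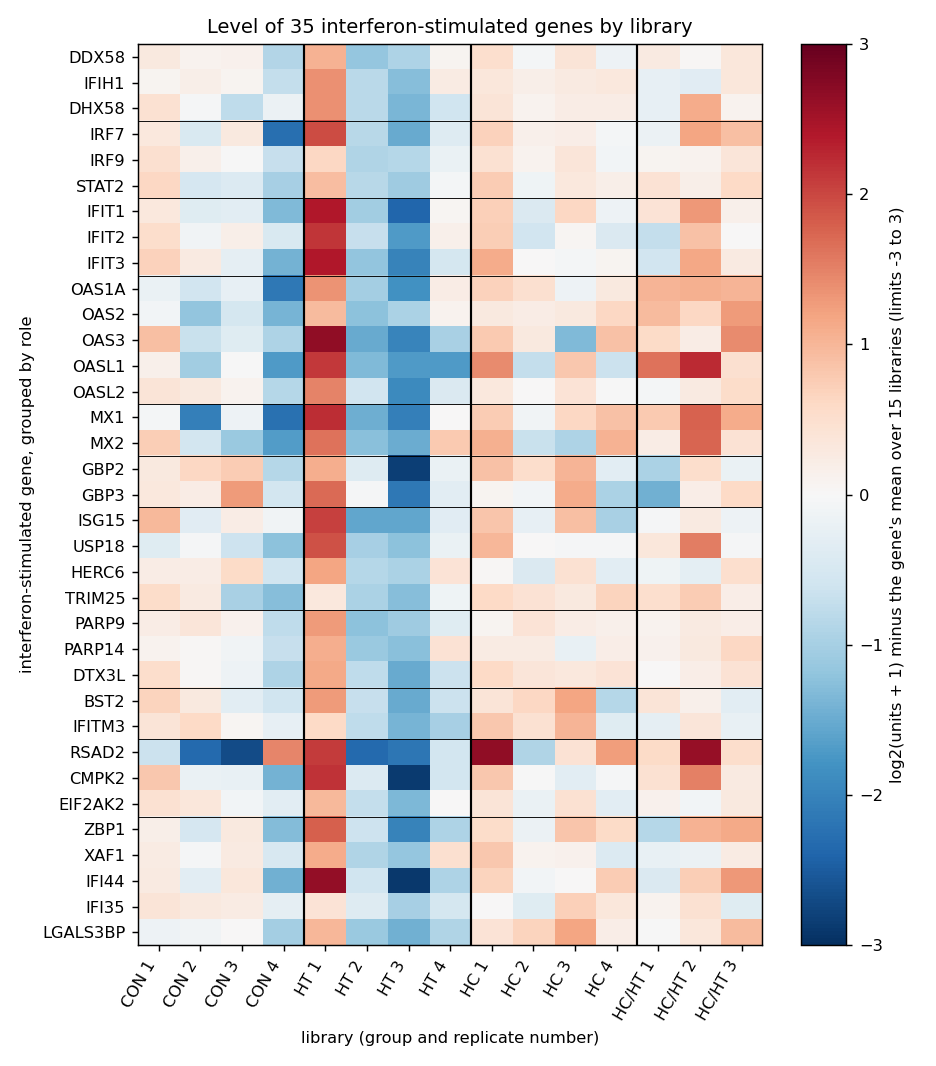
Level of each of the 35 genes (vertical axis, grouped by role) in each of the 15 libraries (horizontal axis). Colour is log2(units + 1) minus the gene's mean over the libraries. HT 1 is the highest library for 27 of the 35 genes and HT 3 the lowest for 23.

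The widest contrast was between libraries of 1 group. HT 1 was the highest of all 15 libraries for 27 of the 35 genes and among the 3 highest for 34. Of all genes tested, 2.49% were highest in HT 1 and 12.8% had it among their 3 highest. With median-of-ratios factors HT 1 was again highest for 27 of the 35 (3.04% of all genes). HT 3 was the lowest library for 23 of the 35, where 23.4% of all genes were lowest there, and for 18 with median-of-ratios factors (11.1% of all genes). The group with the human transgenes alone therefore held both the highest and the lowest interferon-stimulated gene levels of the study.

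Measured against the median of the other 3 HT libraries, HT 1 was higher for 35 of 35 genes. The median difference was 2.19 on the log2(units + 1) scale (range 0.94 to 4.26), while the median of all genes was 0.48. With median-of-ratios factors it was 1.77 (range 0.48 to 3.75), while the median of all genes was 0.00. The 10 genes with a match in their promoter had a median difference of 2.90 (1.47 to 4.26) and the 17 with a promoter and no match 2.06 (0.94 to 3.83), with overlapping ranges. As a plain ratio, which could be formed for 34 genes because OASL1 was listed at 0 in the other HT libraries' median, HT 1 stood 4.74 times above that median (range 2.15 to 32.7), and the typical gene 1.47 times. In no other library did the 35 genes lie so far from their group. The next were HT 3, with a median of -1.34 and 0 of 35 genes above, and CON 4, with a median of -0.89 and 1 of 35 above (medians of all genes -0.34 and -0.63). These are descriptions of single libraries, with no test.

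**Figure D2:**
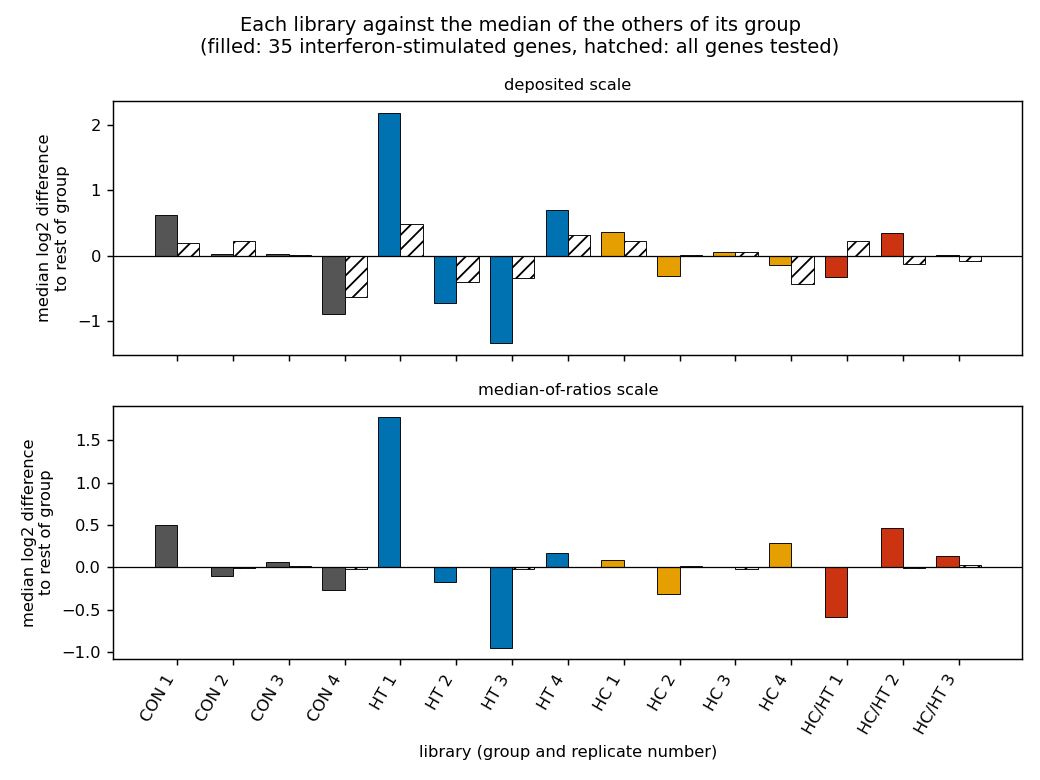
Median log2 difference of each library from the median of the other libraries of its group (vertical axis), for the 35 genes (filled) and for all genes tested (hatched), on the deposited scale (top) and with median-of-ratios factors (bottom). HT 1 reaches 2.19 and 1.77, and HT 3 is the lowest bar in both panels.

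The sensors come first in the pathway. DDX58 (RIG-I) and IFIH1 (MDA5) detect foreign double-stranded RNA in the cytoplasm, and DHX58 (LGP2) modulates them. IFIH1 stood at 40.3, 43.4, 40.1 and 22.7 units in CON 1 to 4, at 100.3, 21.2, 15.2 and 45.3 in HT 1 to 4, at 48.3, 43.4, 45.9 and 47.5 in HC 1 to 4 and at 32.03, 30.1 and 48.9 in HC/HT 1 to 3. Apart from HT 1 its libraries spanned 15.2 to 48.9 units, and the 4 groups overlapped. DDX58 reached 111 units in HT 1 against 23.4 to 56.6 in the other HT libraries, and DHX58 14.2 against 1.27 to 2.84.

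The transcription factors carry the signal to the genome. IRF7, the factor that amplifies interferon production, stood at 8.42, 4.51, 8.23 and 0.588 units in CON 1 to 4, at 28.2, 3.23, 1.67 and 4.80 in HT 1 to 4, at 11.3, 7.35, 7.64 and 6.27 in HC 1 to 4 and at 5.68, 16.3 and 13.03 in HC/HT 1 to 3. It was lowest in CON 4, highest in HT 1, and next highest in HC/HT 2 and HC/HT 3. STAT2 stood at 57.5, 26.1, 27.7 and 18.1 units in CON 1 to 4, at 71.6, 20.4, 17.1 and 35.8 in HT 1 to 4, at 63.96, 33.7, 46.1 and 41.8 in HC 1 to 4 and at 50.2, 42.02 and 57.01 in HC/HT 1 to 3. HT 1 was again highest, followed by HC 1, CON 1 and HC/HT 3, and the groups overlapped. IRF9, the DNA-binding partner of STAT2, ranged from 17.9 to 41.4 units in CON and 15.5 to 45.6 in HT to 27.8 to 40.9 in HC and 31.4 to 38.2 in HC/HT. IRF9 overlaps Rnf31 on the same strand and IRF7 overlaps Phrf1 on the opposite one, and the library kit is not stated to keep strand, so their counts may hold reads of those neighbours.

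The IFIT genes, a cluster on chromosome 19 (mm10, IFIT1 at chr19:34640871-34650009), encode proteins that bind viral RNA lacking host marks. IFIT1 stood at 35.7, 22.04, 22.8 and 10.9 units in CON 1 to 4, at 155, 13.3, 4.70 and 29.7 in HT 1 to 4, at 47.1, 20.8, 44.1 and 25.7 in HC 1 to 4 and at 38.3, 71.9 and 32.03 in HC/HT 1 to 3. HT 1 was more than 2 times the next library, HC/HT 2, and HT 3 was the lowest of all. IFIT2 reached 122 units in HT 1 against 7.54 to 30.1 in the other HT libraries, and IFIT3 115 against 4.51 to 14.2. Outside HT 1 the highest values of IFIT2 and IFIT3 were 49.96 and 48.00, both in HC/HT 2.

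The oligoadenylate synthetases make the second messenger that activates RNase L, which degrades RNA. OAS1A, OAS2 and OAS3 lie side by side on chromosome 5 (OAS2 at chr5:120730333-120749853, minus strand), in a family with close copies of Oas1 whose reads the counting could divide. OAS2 also overlaps an antisense gene, Gm43068, whose reads could be counted with it. OAS2 stood at 17.9, 7.93, 13.03 and 6.66 units in CON 1 to 4, at 38.01, 7.64, 9.40 and 20.7 in HT 1 to 4, at 23.7, 22.6, 23.8 and 29.9 in HC 1 to 4 and at 38.1, 29.9 and 47.7 in HC/HT 1 to 3. All 7 HC and HC/HT libraries lay above all 4 CON libraries, and HT spanned the range from below CON 2 to the level of HC/HT 1. OAS1A stood at 5.09, 3.72, 4.90 and 0.588 units in CON 1 to 4, at 16.7, 2.45, 0.980 and 7.15 in HT 1 to 4, at 10.3, 8.72, 5.29 and 7.54 in HC 1 to 4 and at 13.1, 13.6 and 13.2 in HC/HT 1 to 3. The 3 HC/HT libraries lay close together above every HC and CON library, and HT 1 exceeded them.

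The rest of this family was less even. OAS3 went from 0.588 units in HT 3 to 38.4 in HT 1, its highest library. OASL1, an inhibitor of IRF7 translation, stood at 2.64, 0.588, 2.25 and 0 units in CON 1 to 4, at 13.2, 0.294, 0 and 0 in HT 1 to 4, at 7.74, 0.980, 4.70 and 1.08 in HC 1 to 4 and at 9.01, 14.4 and 3.53 in HC/HT 1 to 3. It was listed at 0 in 3 libraries, so its differences rest on few reads. OASL2 stood at 79.05, 74.5, 65.3 and 32.8 units in CON 1 to 4, at 172, 40.0, 15.4 and 44.4 in HT 1 to 4, at 75.5, 60.8, 80.6 and 59.9 in HC 1 to 4 and at 57.4, 72.8 and 88.5 in HC/HT 1 to 3, with HT 1 highest and HT 3 lowest.

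MX1 and MX2 are genes of the dynamin-like GTPase family, and whether these mice make working proteins from them was not measured. MX1 stood at 5.29, 0.588, 4.90 and 0.392 units in CON 1 to 4, at 29.5, 1.37, 0.588 and 5.68 in HT 1 to 4, at 10.1, 5.09, 9.11 and 11.2 in HC 1 to 4 and at 10.4, 21.4 and 13.2 in HC/HT 1 to 3. HC/HT lay above CON without overlap, and HT 1 was the highest library. MX2, its neighbour on chromosome 16, reached 20.3 units in HC/HT 2 and 18.6 in HT 1 and fell to 0.980 in CON 4. The guanylate-binding proteins respond most to interferon gamma. GBP2 stood at 28.99, 36.8, 40.6 and 12.6 units in CON 1 to 4, at 51.1, 17.8, 2.45 and 20.2 in HT 1 to 4, at 43.98, 34.2, 48.7 and 18.7 in HC 1 to 4 and at 11.8, 34.4 and 20.4 in HC/HT 1 to 3. Its lowest library was HT 3 and its highest HT 1, with HC 3 close behind. GBP3 ranged from 1.67 units in HT 3 to 37.3 in HT 1. Both belong to a family of close copies on chromosome 3.

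ISG15 is a ubiquitin-like protein attached to other proteins, TRIM25 and HERC6 are ligases linked to this system, and USP18 removes ISG15 and dampens the receptor. ISG15 stood at 9.31, 3.13, 5.09 and 3.82 units in CON 1 to 4, at 20.5, 0.784, 0.784 and 3.13 in HT 1 to 4, at 8.23, 3.43, 8.72 and 1.67 in HC 1 to 4 and at 4.11, 5.29 and 3.72 in HC/HT 1 to 3. Its highest library was HT 1 and the next was CON 1. USP18 stood at 4.21, 5.49, 3.33 and 1.86 units in CON 1 to 4, at 24.00, 2.35, 1.86 and 4.80 in HT 1 to 4, at 12.4, 5.78, 5.58 and 5.49 in HC 1 to 4 and at 7.44, 18.3 and 5.58 in HC/HT 1 to 3. HC/HT lay above CON without overlap, by the narrow step from CON 2 to HC/HT 3. TRIM25, which activates RIG-I, stood at 142, 117, 48.1 and 39.3 units in CON 1 to 4, at 119, 49.4, 38.9 and 87.5 in HT 1 to 4, at 146, 131, 117 and 153 in HC 1 to 4 and at 138, 163 and 111 in HC/HT 1 to 3. TRIM25 was one of the 8 genes that were not highest in HT 1: its highest library was HC/HT 2, and CON 1 and CON 2 were within the range of HC and HC/HT. HERC6 reached 67.2 units in HT 1 against 14.5 to 38.4 in the other HT libraries.

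PARP9, PARP14 and DTX3L modify other proteins by ADP-ribosylation and ubiquitin. PARP9 and DTX3L lie head to head on chromosome 16 and overlap on opposite strands, so their reads could be shared. In HT 1 they stood at 41.1 and 53.1 units, against 6.37 to 12.5 and 7.54 to 14.7 in the other HT libraries. PARP14 lay above CON in all 3 HC/HT libraries (72.1 to 102.1 against 40.8 to 70.8 units), and HT 1 reached 142.

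At the membrane, BST2 (tetherin) holds budding virus to the cell. BST2 stood at 16.4, 12.4, 7.74 and 6.27 units in CON 1 to 4, at 25.8, 5.78, 2.84 and 5.98 in HT 1 to 4, at 13.3, 15.8, 23.8 and 5.09 in HC 1 to 4 and at 13.3, 11.2 and 7.74 in HC/HT 1 to 3. HT 1 and HC 3 were highest. IFITM3 stood at 421, 493, 336 and 272 units in CON 1 to 4, at 494, 189, 124 and 162 in HT 1 to 4, at 571, 444, 655 and 249.98 in HC 1 to 4 and at 268, 417 and 279.9 in HC/HT 1 to 3. On the deposited scale HT 2 to 4 were the 3 lowest libraries of the study. HT 1 lay among the highest CON and HC values, so HT and CON overlapped there through HT 1 alone. Of all genes tested, 23.9% were lowest in HT 2 and 23.4% in HT 3. With median-of-ratios factors IFITM3 in HT 2 was 302 units, above CON 3 (284), HC 4 (289) and HC/HT 1 (243). On that scale HT 2 overlapped CON too.

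RSAD2 (viperin) and CMPK2 are neighbours on chromosome 12 that act on nucleotide pools, and EIF2AK2 (PKR) stops translation when it meets double-stranded RNA. RSAD2 stood at 6.66, 1.37, 0.882 and 32.2 units in CON 1 to 4, 49.96, 1.37, 1.67 and 7.15 in HT, 75.4, 5.39, 15.3 and 27.5 in HC and 16.9, 72.6 and 16.2 in HC/HT. Here the highest libraries were HC 1 and HC/HT 2, above HT 1. CON 4 was high for RSAD2 and low, at 2.25 units, for CMPK2, which was 38.0 in HT 1. EIF2AK2 stood at 58.7, 54.1, 40.2 and 33.8 units in CON 1 to 4, at 83.7, 25.3, 16.2 and 42.4 in HT 1 to 4, at 55.2, 37.03, 58.3 and 33.7 in HC 1 to 4 and at 46.1, 40.3 and 52.4 in HC/HT 1 to 3, with HT 1 highest and HT 3 lowest.

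Of the remaining members, ZBP1 senses nucleic acids and can start cell death, XAF1 favours apoptosis, and IFI44 and IFI35 are interferon-induced proteins. IFI44 went from 0.196 units in HT 3 to 53.8 in HT 1, with 20.8 in HC/HT 3 as its next value. ZBP1 was 21.1 in HT 1 and 0.588 in HT 3, and XAF1 50.5 and 9.60. IFI35 stood at 8.42, 7.93, 7.54 and 5.00 units in CON 1 to 4, at 8.62, 4.51, 2.64 and 4.02 in HT 1 to 4, at 6.27, 4.60, 10.9 and 8.23 in HC 1 to 4 and at 6.86, 8.91 and 4.60 in HC/HT 1 to 3. It had the smallest HT 1 excess of the members as a ratio, 2.15. LGALS3BP, a secreted glycoprotein that binds galectins, stood at 107, 109.8, 120.1 and 58.4 units in CON 1 to 4, at 237, 54.3, 43.4 and 63.3 in HT 1 to 4, at 158, 188, 270.2 and 136 in HC 1 to 4 and at 118, 151 and 229 in HC/HT 1 to 3. All HC libraries lay above all CON libraries, and HT 1 was second only to HC 3.

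**Figure D3:**
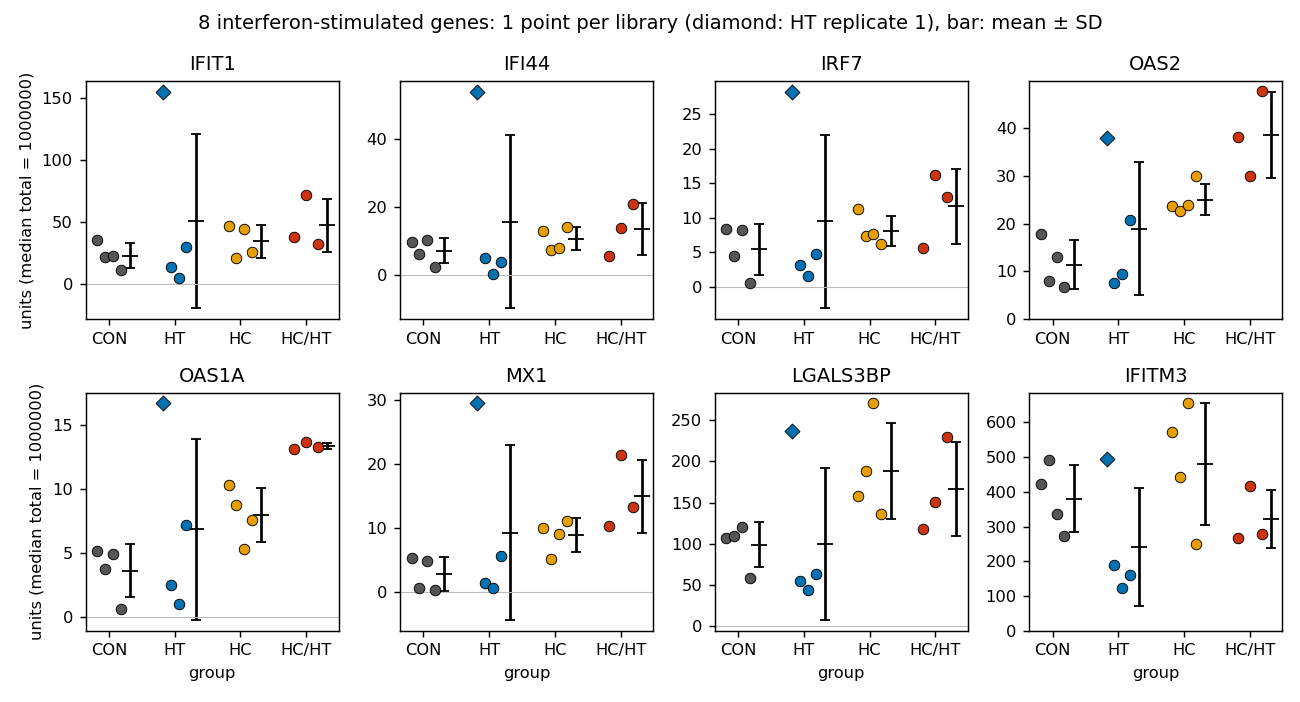
Level in units (vertical axis, linear) of 8 of the genes by group (horizontal axis), 1 point per library, a diamond for HT 1, and the mean ± SD of each group beside its points. For OAS2 and OAS1A the HC/HT points lie above all CON points, and for IFIT1, IFI44 and IRF7 the diamond is the highest point of its panel.

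What else stood out in HT 1 was read from lists that do not include the 35 genes. Against the median of the other HT libraries, 49 of 50 other interferon-stimulated genes were higher (median 1.56 on the log2 scale), as were 15 of 15 interferon-gamma-inducible GTPases (2.16) and 19 of 19 genes of antigen processing and interferon gamma chemokines (1.76). The receptor genes differed less (6 of 6 higher, median 0.95), and so did 8 genes of signal transduction (7 of 8 higher, median 0.58), with the median of all genes at 0.48. These counts and medians are given on the deposited scale only. The typical gene was itself higher in HT 1 on that scale, so a count of higher genes would tend to be high for any list. IFNAR1 in HT was 64.4, 22.2, 47.02 and 63.96, IFNAR2 50.4, 23.6, 24.8 and 35.6 and IFNGR1 59.5, 34.2, 25.2 and 31.5 units. IRF1, a factor induced by interferon gamma, was 18.02, 9.21, 5.29 and 14.01. For these 4 genes HT 1 lay inside the range that CON spanned.

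The ligands themselves were at the floor of the data. IFNG was listed at 0 in 13 of 15 libraries and at 0.196 units in HC 1 and HC 3, and IFNB1 at 0 in 14, with 0.196 in CON 1. Of 21 interferon genes listed 8 had a row and 0 passed the filter. A level of about 1 read says nothing on whether interferon was made. CXCL10, an interferon-induced chemokine named here after its values were seen, was 72.7 units in HT 1, 82.1 in HC/HT 2 and 42.7 in HC 1, against 1.37 to 4.90 in CON and 0.882 to 10.7 in HT 2 to 4.

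Ranked over the whole table by how far HT 1 exceeded the highest of the other 14 libraries, 13 of the top 50 genes were among the 35, and 17 were on the other pathway lists (of 130 tested). The first 5 were CLEC3A, IFI44, IFIT2, IFIT3 and OAS3. This ranking was made after the values had been seen and is a description. CLEC3A, a cartilage lectin, is not an interferon-stimulated gene on these lists, and it was 322 units in HT 1 with 121 as the next value.

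Macrophage markers moved in the same direction within HT. Their sum was 1627 units in HT 1 and 418, 200 and 604 in HT 2 to 4, and 12 of 13 were higher in HT 1 (median 1.90). It was higher still, 1958 to 4457, in the 7 HC and HC/HT libraries. T and NK cell markers summed to 15.5 units in HT 1 and 1.37 to 7.64 in the other HT libraries, and reached 55.9 in HC. The 6 plasmacytoid dendritic cell markers, BST2 among them, summed to 345 units in HT 1 and 179, 164 and 237 in HT 2 to 4, and to 306 to 502 in CON. SIGLECH, the defining one, was 0.392 units in HT 1 and at most 3.43 anywhere. Valve interstitial and fibroblast markers were higher in HT 1 for 10 of 10 genes (median 1.12). These marker values are on the deposited scale, where the typical gene was 1.47 times higher in HT 1 (0.991 times with median-of-ratios factors). Part of each count of higher markers would therefore be seen for any list. The part of these cells in the HT 1 values was not tested. CON 4 stood apart in B cell markers, at 115 units against at most 7.54 elsewhere. On the deposited scale 34 of the 35 genes in CON 4 lay below the median of the other CON libraries, RSAD2 being the exception. The 4 very abundant rows took 57.8% of CON 4. With median-of-ratios factors DHX58, ISG15, EIF2AK2, IFITM3 and PARP14 also lay above the median of the other CON libraries.

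Against this spread, the group comparisons were fitted with limma, with sex as a term, over all genes. In HC against CON, which asks about ApoE loss alone, 0 of the 35 genes passed at an adjusted p under 0.05 (0.167% of all genes did), and 1 was at an unadjusted p under 0.05 (4.01% of all genes). The median of the 35 differences was 0.15, with 24 of 35 positive (47.3% of all genes), and the median of all genes was -0.02. Median-of-ratios factors gave 0.16 with 24 positive. In the deposited units the median was -0.03 without CON 4 and 0.31 without HT 1. The smallest p belonged to OAS2, at 25.0 ± 3.29 units in HC (mean ± SD, n = 4) and 11.4 ± 5.15 in CON, a fitted log2 difference of 1.15 ± 0.43 (SE, limma adjusted p = 0.776). TRIM25 (0.69 ± 0.40) and OAS1A (0.95 ± 0.57) followed, both with a limma adjusted p of 1.00. OAS1A, OAS2 and LGALS3BP were higher in HC than in CON without overlap, 3 of 35 genes where 2.81% of all genes were, and 0 were lower (1.76%).

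HT against CON asks what the transgenes do alone. In limma 0 of the 35 genes passed (0% of all genes), and 1, IFITM3, was at an unadjusted p under 0.05 (12.8% of all genes). The median of the 35 differences was -0.32, with 7 of 35 positive (13.3% of all genes), and the median of all genes was -0.42. Under median-of-ratios scaling it was 0.04, with 20 of 35 positive, so the direction depends on the scaling. IFITM3 had the smallest p, at -0.97 ± 0.36 (limma adjusted p = 0.359). IFI35 (-0.65 ± 0.38, adjusted p = 0.425) and GBP2 (-1.03 ± 0.60, adjusted p = 0.428) came next. Without HT 1 the median was -0.81, with 1 of 35 positive, against -0.51 for all genes, and 0 genes passed. Without HT 3 the median was 0.07. No member was without overlap between HT and CON (0.0666% of all genes were higher and 4.15% lower). The sign of the median thus turned with the library left out.

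**Figure D4:**
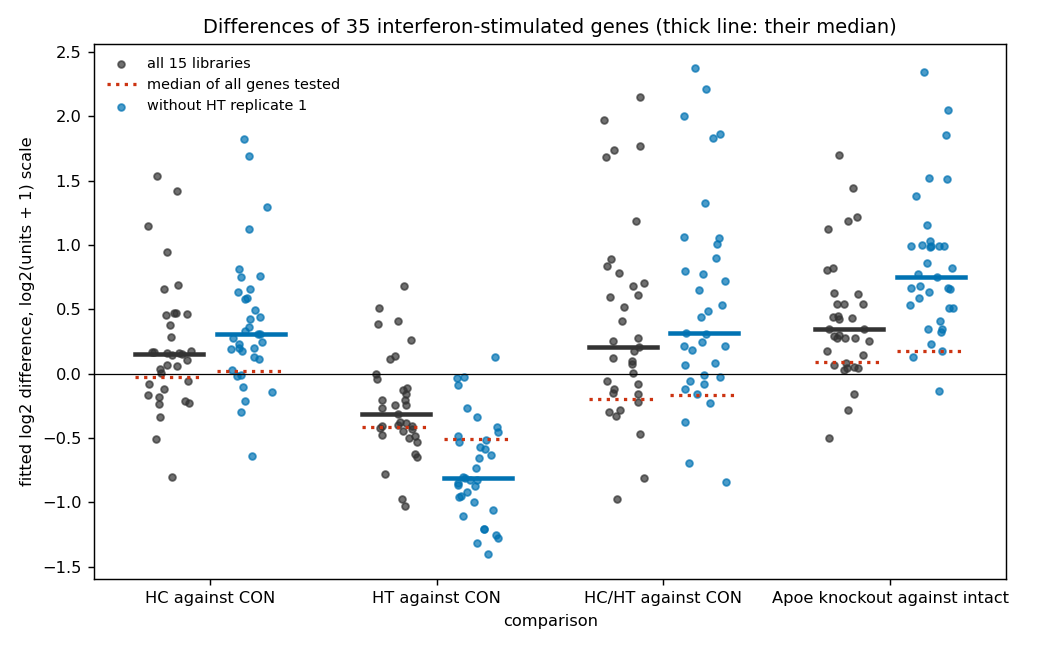
Fitted log2 differences of the 35 genes (points, vertical axis) in 4 comparisons (horizontal axis), from all 15 libraries (grey) and without HT 1 (blue). Thick lines are medians of the 35 genes and dotted lines medians of all genes tested. For HT against CON the median goes from -0.32 to -0.81 without HT 1, and for the pooled ApoE knockout from 0.35 to 0.75.

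HC/HT against CON compares both changes together with neither. In limma 0 of the 35 passed (0.467% of all genes), and 3, OAS2, OAS1A and MX1, were at an unadjusted p under 0.05 (11.4% of all genes). The median was 0.20, with 23 of 35 positive (33.2% of all genes), and the median of all genes was -0.20. Median-of-ratios factors gave 0.41 with 28 positive. In the deposited units the median was 0.01 without CON 4 and 0.40 without CON 1. OAS2 was at 38.6 ± 8.92 units (n = 3), a log2 difference of 1.74 ± 0.45 (limma adjusted p = 0.0857). It passed with median-of-ratios factors (1.93 ± 0.37, adjusted p = 0.0224) and without HT 1 (1.86 ± 0.40, adjusted p = 0.0212), where 0.613% of all genes passed. Over 29 alternatives it was at an adjusted p under 0.05 in 9, with limma adjusted p from 0.00676 to 0.463. Of the 15 that left out a library it passed in 2 (HT 1 or HT 3). The alternative with a limit of 0.1, which the 0.0857 meets, is not among the 9. OAS1A was at 13.3 ± 0.259 units against 3.58 ± 2.08 (1.68 ± 0.60, limma adjusted p = 0.265) and MX1 at 15.0 ± 5.69 against 2.79 ± 2.66 (2.15 ± 0.89, limma adjusted p = 0.393). OAS1A, OAS2, OASL1, MX1, USP18 and PARP14 were higher in HC/HT without overlap, 6 of 35 where 2.89% of all genes were, and 0 were lower without overlap (7.66% of all genes).

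The transgenes on the ApoE-null background are seen in HC/HT against HC. In limma 0 of the 35 genes passed (0% of all genes), and 0 were at an unadjusted p under 0.05 (4.41% of all genes). The median was 0.12, with 24 of 35 positive (30.6% of all genes), and the median of all genes was -0.18. Median-of-ratios factors gave 0.30 with 31 positive. In the deposited units the median was 0.01 without HC 4 and 0.21 without HC 2. The smallest p values were those of OASL1 (1.29 ± 0.87), OAS2 (0.59 ± 0.43) and OAS1A (0.74 ± 0.57), each with a limma adjusted p of 0.984. OAS1A alone was higher in HC/HT without overlap, 1 of 35 where 1.02% of all genes were, and 0 were lower (4.53%).

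HC/HT against HT shows ApoE loss on the transgenic background. In limma 0 of the 35 passed (0.373% of all genes), and 5 were at an unadjusted p under 0.05 (8.71% of all genes). The median was 0.56, with 32 of 35 positive (69.5% of all genes), and the median of all genes was 0.21. Median-of-ratios factors gave 0.32 with 29 positive. With each library left out in turn, in the deposited units, the median went from 0.23 (without HT 2) to 1.14 (without HT 1, 35 of 35 positive). No member was without overlap between these groups, where 4.99% of all genes were higher and 1.18% lower. OAS2 (1.23 ± 0.43, limma adjusted p = 0.332), TRIM25 (0.95 ± 0.40, 0.487) and LGALS3BP (0.95 ± 0.42, 0.514) had the smallest p. Without HT 1, 5 of the 35 passed, OAS2, OAS3, OASL1, MX1 and LGALS3BP, with limma adjusted p from 0.00962 to 0.0415 (1.73% of all genes passed). Without HT 1 and with median-of-ratios factors 1 passed, OASL1. HT 1 was the highest HT library for each of these 5 genes, so leaving it out raised their differences. These calls without HT 1 are therefore no separate support for a rise.

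The interaction of HC and HT asks whether the 2 changes add. In limma 0 of the 35 genes passed (0% of all genes), and 0 were at an unadjusted p under 0.05 (1.38%). The median was 0.37, with 33 of 35 positive (71.8% of all genes), and the median of all genes was 0.23. Median-of-ratios factors gave 0.16 with 27 positive. In the deposited units the median was -0.01 without HT 3 and 0.78 without HT 1. OASL1 (1.497 ± 1.196), EIF2AK2 (0.55 ± 0.53) and OASL2 (0.66 ± 0.64) had the smallest p, with standard errors nearly as large as the differences and a limma adjusted p of 1.00.

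Pooling the groups gives more libraries a side. In the 7 libraries without ApoE against the 8 with it, OAS2 was the 1 member of 35 that passed (1.47% of all genes did), and 5 were at an unadjusted p under 0.05 (9.84%). OAS2 was 30.8 ± 9.19 units (mean ± SD, n = 7) against 15.2 ± 10.5 (n = 8), a rise of 1.19 ± 0.31 on the log2 scale (limma adjusted p = 0.0490). The ApoE-null libraries lay between 22.6 and 47.7 units and the others between 6.66 and 38.0, overlapping through HT 1. No member was without overlap in this comparison (0.673% of all genes were higher and 0.12% lower). The call was near its limit: over 28 alternatives it passed in 11, with adjusted p from 0.00214 to 0.298, and of the 15 libraries left out in turn it passed only without CON 1 or HT 1. With median-of-ratios factors it was 1.07 ± 0.25 (adjusted p = 0.0386). The macrophage marker sums of these 2 sides did not overlap (1958 to 4457 against 200 to 1627), and 4 of 13 macrophage markers tested, CD68, LYZ2, C1QB and ITGAM, rose. Their part in the OAS2 result was not tested.

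The next members were TRIM25 (0.82 ± 0.29, limma adjusted p = 0.229), OAS1A (1.12 ± 0.42, 0.272), LGALS3BP (0.80 ± 0.30, 0.274) and MX1 (1.44 ± 0.62, 0.448). The median over the 35 genes was 0.35, with 32 of 35 positive (61.8% of all genes), and the median of all genes was 0.09. With median-of-ratios factors it was 0.22, with 26 positive. In the deposited units the median was 0.13 without HT 2 and 0.75 without HT 1. Without HT 1, 5 of the 35 passed, and 2.79% of all genes. They were OAS2 (1.51 ± 0.29, limma adjusted p = 0.00214), MX1 (2.05 ± 0.44), LGALS3BP (1.16 ± 0.26), OASL1 (1.85 ± 0.43) and OAS1A (1.52 ± 0.38). The same 5 passed without HT 1 and with median-of-ratios factors. The count thus went from 1 to 5 without HT 1. HT 1 was the highest ApoE-intact library for each of these 5 genes, so leaving it out raised their differences. Their calls without HT 1 are therefore no separate support for a rise.

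By role, all 5 members of the oligoadenylate synthetase family had a positive difference in the pooled ApoE comparison (0.15 to 1.22). The highest of these, 1.22, was that of OASL1, which rests on few reads. Both MX genes (0.62 and 1.44), the 3 sensors (0.07 to 0.30) and the 3 transcription factors (0.29 to 0.54) were positive too. Of the IFIT genes 2 of 3 were positive (-0.28 to 0.44), and of the guanylate-binding proteins 1 of 2 (-0.50 and 0.03). With median-of-ratios factors the signs of IFIH1 (-0.06) and GBP2 (-0.08) turned negative. Those of the 5 synthetase family members, both MX genes and the transcription factors stayed positive. Of all these genes OAS2 alone passed, and the differences between roles were not tested.

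Pooled over ApoE, the transgenic libraries (7) were compared with the others (8). In limma 0 of the 35 passed (0.0133% of all genes), and 1, IFITM3, was at an unadjusted p under 0.05 (16.7%). The median was -0.11, with 13 of 35 positive (16% of all genes), and the median of all genes was -0.30. With median-of-ratios factors it was 0.15, with 29 positive. In the deposited units the median was -0.33 without HT 1 and 0.05 without HT 3. IFITM3 was -0.72 ± 0.26 (limma adjusted p = 0.203), GBP2 -0.84 ± 0.43 (0.330) and OAS2 0.55 ± 0.29 (0.330). No member was without overlap here (0% of all genes were higher and 0.133% lower).

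The other genes of the pathway were counted in the same fits. Of 6 receptor genes, 8 of signal transduction, 13 negative regulators, 15 interferon-gamma-inducible GTPases and 19 of antigen processing, 0 passed in any of the 8 comparisons by limma. Of all genes tested, 0% to 1.47% passed, depending on the comparison. Of 19 nucleic acid sensing genes UNC93B1, which delivers Toll-like receptors to endosomes, rose in the pooled ApoE comparison (1.24 ± 0.30, limma adjusted p = 0.0311). UNC93B1 stood at 32.5, 22.2, 23.5 and 16.8 units in CON 1 to 4, at 33.8, 9.89, 6.17 and 15.2 in HT 1 to 4, at 49.5, 66.3, 54.9 and 27.8 in HC 1 to 4 and at 34.8, 52.4 and 43.3 in HC/HT 1 to 3. Of 50 other interferon-stimulated genes IFI30, a lysosomal thiol reductase, rose there (1.78 ± 0.39, limma adjusted p = 0.0242), and it stood at 17.9, 14.4, 11.3 and 13.9 units in CON 1 to 4, at 25.4, 9.01, 2.84 and 8.03 in HT 1 to 4, at 31.5, 76.9, 99.1 and 28.6 in HC 1 to 4 and at 29.9, 73.4 and 28.1 in HC/HT 1 to 3. In the pooled ApoE comparison 1.47% of all genes passed, so 1 call in a list of 19 or 50 genes says little about the list. Both genes are also expressed by macrophages. Both were lowest in HT 3, as were 23.4% of all genes tested. The part of macrophages in these 2 results was not tested.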

How the data were processed

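RNA from mouse aortic valves was measured in 15 libraries. Per the labels' protocols, Nugen Ovation RNA-Seq v2 made cDNA from total RNA, and Bowtie 1.0.1, SAMtools 0.1.9, FastQC 0.11.2, edgeR and the mm10 build are named in the submitters' processing notes. What the authors deposited is a score: counts they normalised and then rounded, with near-equal totals (10207928 to 10210305). How they were normalised is not given here. The depth is therefore only estimated, from the steps between low values, at 4.22 to 6.45 (in 1000000 reads). In a library 85.6% to 100% of low values lay near a whole multiple of the step (41.4% to 63.2% by chance), so no count model was used. 1 column of values has no sample name and was not used.

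All values were multiplied by 0.0979537. limma 3.58.1 (R 4.3.3) was fitted to log2(units + 1), a pseudocount of 1, over the 15004 genes reaching 1 unit in 4 or more libraries, with group and sex as terms and eBayes with trend and robust. The tests are two-sided, and p-values were adjusted by Benjamini-Hochberg over all genes of each of 8 comparisons, several of which share control libraries. The fit was checked on simulated data. The members, gene lists and tests were chosen with earlier results of these data known. All 35 genes could be named. Values per library were given for members that passed, for the 3 smallest p in each comparison and for 11 fixed members. From the other lists came genes that passed, IRF1, the receptors, IFNG and IFNB1. Exon lengths and positions are from GENCODE M21. One gene that the rule names is not reported here.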

Additional observations from a re-analysis of the deposited data

Results flagged for a closer look

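In groups of 4 libraries, 1 library far from the other 3 was found in 20 of 105 gene and group results. Far means Dixon's ratio of gap to range above its 95% limit. About 1 in 20 independent, normally spread results would exceed that limit, but these genes moved together, so the shares of all genes are given. Of the 20, 15 were HT 1 standing high, where 3.73% of all genes tested did so. They were IFIT1 at 155 units, IFIT3 at 115, LGALS3BP at 237, IFI44 at 53.8, DTX3L at 53.1, RSAD2 at 49.96, OAS3 at 38.4, CMPK2 at 38.0, IRF7 at 28.2, BST2 at 25.8, USP18 at 24.0, ZBP1 at 21.1, ISG15 at 20.5, DHX58 at 14.2 and OASL1 at 13.2. In HC, HC 1 stood high for IFIT3 at 46.4 and USP18 at 12.4 (1.37% of all genes did so). HC 4 stood high for OAS2 at 29.9 (0.46% of all genes), and HC 3 stood low for PARP14 at 57.0 (0.247%). In CON, CON 4 stood low for IFIH1 at 22.7 (1.88% of all genes).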

How the results depend on the processing

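The number of the 35 genes that passed was small and moved with the settings, and the cause was not tested. In HC/HT against CON it was 0, and 1 with median-of-ratios factors, quantile normalisation, totals without the 4 most abundant rows, array weights, an adjusted p under 0.1, or without HT 1 and with median-of-ratios factors (added after seeing the data), and 3 with only the groups compared. In the pooled ApoE comparison it was 1, and 0 at a pseudocount of 0.25, without a filter, with a filter at 5 units or with eBayes without trend and robust, and 5 without HT 1 and with median-of-ratios factors. In HC/HT against HT it was 0, and 1 with only the groups compared or without HT 1 and with median-of-ratios factors. In HC against CON and in the pooled transgene comparison it was 0, and 1 with array weights. Leaving out each library in turn gave 0 to 1 for HC/HT against CON, 0 to 5 for HC/HT against HT, 0 to 5 for the pooled ApoE comparison (OAS2 passed only without CON 1 or HT 1) and 0 to 1 for the pooled transgene comparison (IFITM3, without HC 4).

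Whether shared replicate numbers pair the libraries is not settled. Over 21 same-numbered pairs the correlation of deviations was -0.12 to 0.27, and 8 were above 0.1. Their median was 0.07, against -0.07 for the other pairs, and 4 of 15 libraries correlated best with their own number. With the replicate number as a block 1 gene passed in HC/HT against CON and 1 in the pooled transgene comparison. The median difference of the 35 genes moved by less than 1 SD between libraries under all alternatives, but where it was near 0 its sign turned: in HC against CON without CON 2, CON 4 or HC 2 (down to -0.03), in the interaction without HT 3 (-0.01), and in HT against CON (up to 0.07) and the pooled transgene comparison (up to 0.15) with median-of-ratios factors, quantile normalisation or without HT 2 or HT 3, the latter also with totals without the 4 most abundant rows. Depth limits OASL1, OAS3 and MX1, whose levels in several libraries correspond to a few reads.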
